A study of Caenorhabditis elegans with 12 samples.

Results

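RNA of *mab-10* mutant young adults was compared with RNA of wild-type young adults in *Caenorhabditis elegans*, across all genes. The comparison rests on 6 of the 12 sequenced libraries, the 3 labelled *mab-10* and the 3 labelled wild-type, which were chosen by their genotype labels and not by any measured value. The mutants were of strain MT19733, with the deletion allele *mab-10(tm2497)* and the integrated reporter maIs105. The wild-type animals were of strain VT1367, which carries the same reporter, so that each group made the *col-19::gfp* transgene and the wild-type was not the plain reference strain. The other 6 libraries, 3 of *lin-29(n836)*; maIs105 animals and 3 of *ddx-23(n5705)*; maIs105 animals, shared the estimate of the spread and are set beside the *mab-10* values in places. Each library was made from total RNA of whole, age-synchronized hermaphrodites picked by hand (200 in total), so it pooled animals, and fewer cells of a type could not be told apart from less RNA per cell. Each mutant was 1 strain with 1 allele.

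MAB-10 is the NAB (NGFI-A-binding) protein of *C. elegans*. NAB proteins do not bind DNA themselves. They bind transcription factors of the EGR zinc-finger family and change, often repress, the output of their target genes. The EGR protein that MAB-10 joins is LIN-29, the last factor of the heterochronic pathway, which times larval development. In the epidermis (hypodermis), LIN-29 ends the larval program of the seam cells, the stem-like cells that divide at each larval stage: in the adult they leave the cell cycle, fuse and make adult cuticle. The cuticle is a sheet of cross-linked collagens, rebuilt at each molt from collagens that differ by stage, and *col-19* encodes an adult collagen. The comparison asks which RNAs change in adults when the co-factor is lost.

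Levels are log2(FPKM+1), FPKM being the number of fragments scaled to transcript length and to the mapped reads of the library, and library values stand in the order of replicates 1, 2 and 3. A difference is the mean of the *mab-10* libraries minus that of the wild-type libraries on this scale, on which the fold of weakly expressed genes is understated. The limma test covered 14199 of 46761 genes, those reaching an FPKM of 1 in 3 or more libraries. Genes called higher or lower had a Benjamini-Hochberg adjusted p under 0.05 together with a difference over 1 in size. Read depth per library is unknown. FPKM summed to between 1038344 and 1130220 per library, and 127 to 446 of the tested genes were listed at 0 in a library.

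The libraries labelled wild-type 3 and *mab-10* 1 stood apart from the others of their groups. Across the tested genes, the correlation was 0.991 between wild-type 1 and 2 and 0.960 to 0.961 between either and wild-type 3. It was 0.986 between *mab-10* 2 and 3 and 0.955 to 0.961 between either and *mab-10* 1. Wild-type 3 reached 0.9687 with *mab-10* 1, 0.9685 with *mab-10* 2 and 0.9607 with *mab-10* 3. The correlation of *mab-10* 1 with wild-type 1 and 2 was 0.9669 and 0.9683. On the first principal component of the 6 libraries, which held 63% of the variance, wild-type 1 and 2 lay at -51.8 and -56.3 and *mab-10* 2 and 3 at 48.2 and 60.9. Wild-type 3 (8.77) and *mab-10* 1 (-9.69) lay between them, in crossed order. By library number, wild-type 1 and 2 (3233, 3234) and *mab-10* 1 (3235) came from an earlier run of numbers. Wild-type 3 (3248) and *mab-10* 2 and 3 (3249, 3250) came from a later one. The 2 libraries that stood apart are thus the only later wild-type and the only earlier *mab-10* library. What the numbers record was not stated, and this division was made with the values known. Differences within the earlier and within the later libraries are given beside several results below.

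The mutated gene itself did not check the labels. The level of *mab-10* (chromosome II, 10528084 to 10534380, WBcel235) was 2.16, 2.03 and 2.72 in wild-type libraries and 2.67, 3.15 and 2.89 in mutant libraries, 0.59 higher (adjusted p = 0.16 from limma). The groups overlapped, and the RNA was no lower in the mutants. A value summed over the whole gene cannot show whether a deleted stretch is missing, so the genotype rests on the label. The transcript of the partner gene *lin-29* was at 1.90, 2.0 and 2.13 against 2.74, 2.56 and 2.52, and this difference of 0.59 did not pass either (adjusted p = 0.13 from limma). Both genes passed without wild-type 3. The 3 other EGR family genes, *egrh-1*, *egrh-2* and *egrh-3*, differed by 0.36, -0.13 and 0.11, and none of the 5 EGR and NAB genes passed.

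Loss of *mab-10* went with more RNAs higher than lower. In the mutants 128 genes were called higher, 0.901% of those tested, and 19 lower, 0.134%. By the adjusted p alone 147 (1.04%) were higher and 33 (0.232%) lower. An unadjusted p under 0.05 from limma was reached by 2994 of the 14199 tested genes, both directions together. The median difference was 1.48 among the genes called higher and -2.15 among those called lower, and 30 and 10 of them differed by more than 2 in size. In all 147 the 6 libraries separated into the 2 groups without overlap, as did 14.8% of all tested genes with the mutants higher and 3.23% with the mutants lower. All tested genes had a median difference of 0.14, and 71.8% of them lay above 0. Scaling the libraries by median ratios took that median to -0.002 and the share of calls that were higher from 87.1% to 77.6%, and quantile normalization took them to -0.036 and 63.6%.

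The number of calls depended on the libraries that entered. Without wild-type 3 there were 993 genes higher (6.99%) and 185 lower (1.3%), and without *mab-10* 1 there were 1049 (7.39%) and 78 (0.549%). Without wild-type 1, wild-type 2, *mab-10* 2 or *mab-10* 3, the 4 libraries called core libraries here, there were 55, 40, 45 and 41 higher and 11, 11, 11 and 9 lower. Leaving out *lin-29* 1 gave 200 higher, and leaving out *ddx-23* 1, 2 or 3 gave 85, 84 and 81. All 128 and all 19 genes had the same sign within the earlier and within the later libraries. This follows from the lack of overlap between the groups and is no separate evidence. Of these genes, 81 and 14 differed by more than 1 in both. In all 12 fits that left out 1 library, 34 genes stayed called higher and 9 called lower.

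**Figure D1:**
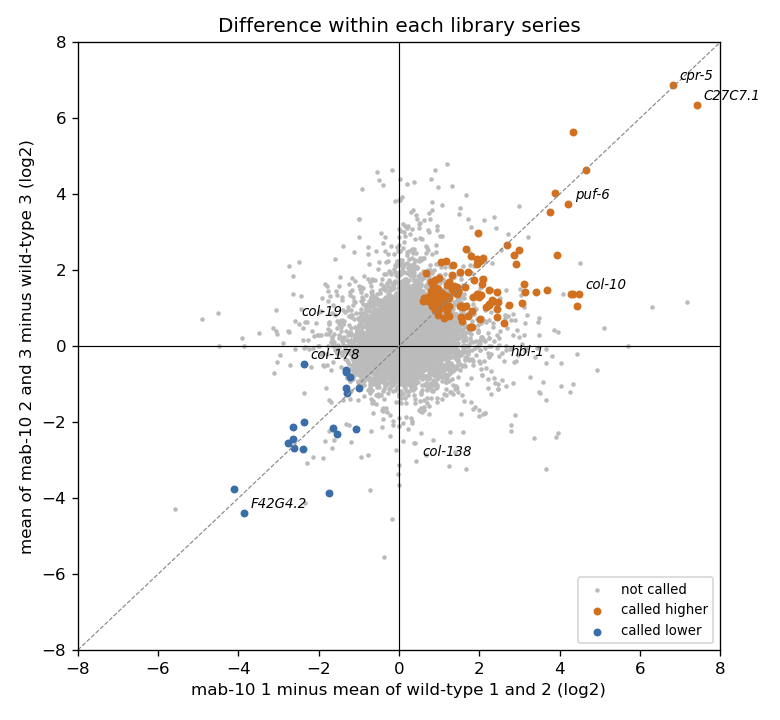
Difference of each tested gene within the earlier libraries (horizontal axis, log2) against that within the later libraries (vertical axis, log2), with called genes in orange (higher) and blue (lower) and the dashed line marking equal differences. All 147 called genes have the same sign on the axes, as they must where the groups do not overlap. *col-19*, *hbl-1* and *col-138* have opposite signs on the axes.

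The largest increases among the called genes started from low levels in wild-type adults. The highest of all was *cpr-5* (chromosome V), which encodes a cathepsin B-like cysteine protease. It stood at 0.57, 1.37 and 0.90 in wild-type and at 7.79, 7.59 and 7.95 in mutant libraries. All 3 mutant libraries were high and all 3 wild-type libraries low, a difference of 6.83 ± 0.23 (adjusted p = 1.04e-07 from limma, n = 3 a group) and a 225-fold ratio of mean FPKM. Here and below, the value after ± is the SE of the limma fit, whose spread was estimated from all 12 libraries. It is not the spread of these 2 groups alone and can be smaller than they would give. Next came C27C7.1 (chromosome I), at 0.11, 0.00 and 0.12 against 7.48, 6.55 and 6.4, a difference of 6.73 ± 0.25. A serine carboxypeptidase gene of the cathepsin A type, *ctsa-1.2* (chromosome II), read 2.88, 3.06 and 1.52 against 7.30, 7.09 and 7.23. Its difference was 4.72 ± 0.32. Of 16 tested genes in the list of cathepsin B-like and carboxypeptidase genes, *cpr-5* and *ctsa-1.2* were the 2 that rose, against 1.04% of all tested genes. None fell, and the median over the list was -0.05. The gene lists were chosen with earlier results of these data known. Counts of their members beside the share of all tested genes are therefore no independent evidence.

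These 3 genes differed between the other mutants. In *lin-29* libraries *cpr-5* averaged 9.65, which was 1.87 above *mab-10* (adjusted p = 4.31e-04 from limma), and in *ddx-23* libraries it averaged 0.64, which was 7.14 below. The mean of C27C7.1 was 6.87 in *lin-29* and 0.07 in *ddx-23* libraries, and that of *ctsa-1.2* was 8.20 and 2.55. Each of them was lower in *ddx-23* than in *mab-10* animals, with adjusted p between 6.52e-08 and 2.19e-05 in limma.

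**Figure D2:**
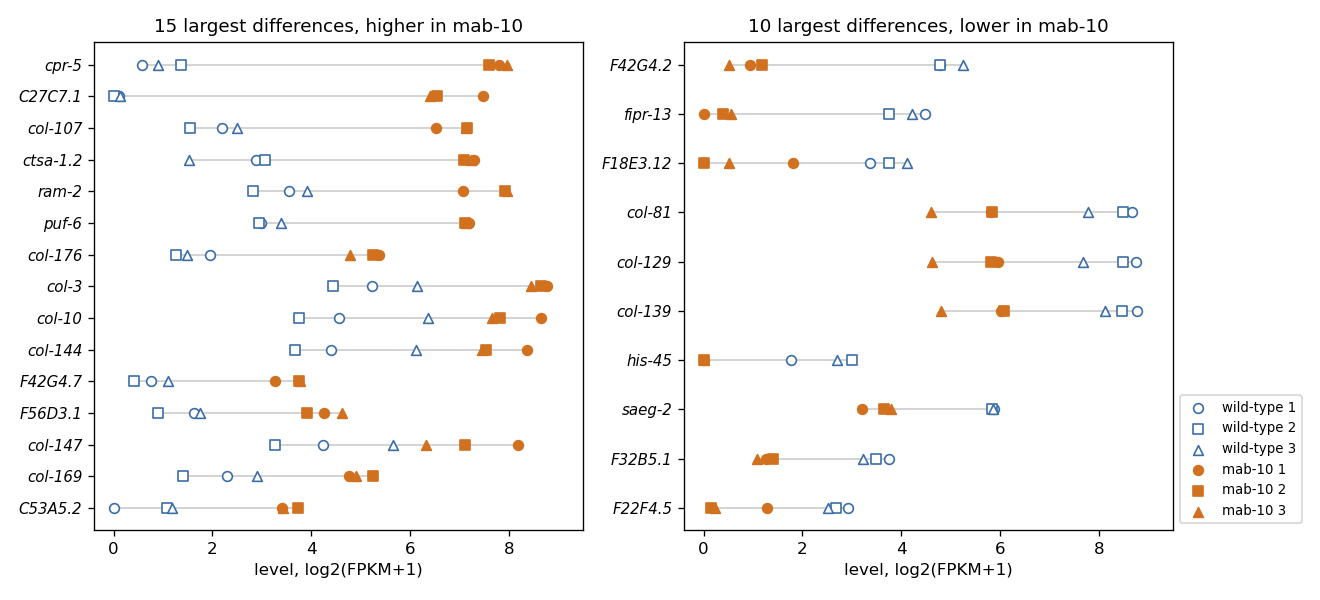
Level of the 15 genes with the largest increases (left) and the 10 with the largest decreases (right) among the called genes, in each library, as log2(FPKM+1), with wild-type libraries as open blue and *mab-10* libraries as filled orange markers, shaped by replicate. The wild-type and mutant markers of each gene do not overlap, and in *col-10*, *col-144* and *col-147* wild-type 3 is the wild-type marker nearest to the mutants.

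A short stretch of chromosome II held 4 of the called genes side by side. *puf-6* (13039792 to 13043445), which encodes a Pumilio-family RNA-binding protein, read 2.98, 2.95 and 3.38 in wild-type and 7.19, 7.11 and 7.13 in mutants, a difference of 4.04 ± 0.15. The next gene, the pseudogene WBGene00008933, was listed at 0 in all wild-type libraries and at 1.45, 1.67 and 1.45 in the mutants. F42G4.7 (13046102 to 13047290) followed at 0.75, 0.41 and 1.10 against 3.27, 3.76 and 3.77. F42G4.2 (13047909 to 13050807) went the other way and was the largest decrease among the called genes, from 4.78, 4.79 and 5.24 to 0.93, 1.18 and 0.52 (difference -4.06 ± 0.23, adjusted p = 8.62e-06 from limma). The gaps between neighbours were 506, 127 and 619 bases. All 4 genes kept their call in every fit without 1 library. Their means in *lin-29* libraries were on the mutant side (*puf-6* 6.88, F42G4.7 4.23, F42G4.2 1.79), and in *ddx-23* libraries on the wild-type side (3.61, 0.86 and 5.64).

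The stretch lies 2.5 megabases from *mab-10* and on the same chromosome as *lin-29*. A change in the linked chromosome that came with the alleles cannot be told apart from an effect of the mutations with 1 strain each. The share of tested genes called was 1.28% on chromosome II, 1.59% on V, 1.2% on X, 0.838% on IV, 0.652% on I and 0.547% on III. Nearer to *mab-10*, at 0.48 megabases, *col-81* fell and its neighbour *ram-2*, 1822 bases away, rose. *ram-2*, named for the shape of the male tail rays, read 3.55, 2.82 and 3.91 against 7.07, 7.91 and 7.96, a difference of 4.22 ± 0.36. It was the 1 gene of 18 in the male tail list to pass, against 1.04% of all tested genes higher.

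Cuticle collagens changed in both directions. Of 135 tested collagens, 12 rose and 5 fell at an adjusted p under 0.05, against 1.04% and 0.232% of all tested genes. All 17 were also called by size. The median of the list was 0.36, and 78 of its members lay above 0. Without wild-type 3 the counts were 32 and 20, against 13.1% and 2.61% of all tested genes, and without *mab-10* 1 they were 32 and 13, against 10.5% and 0.972%. Without wild-type 1 or *mab-10* 2 they were 7 and 3, and leaving out *lin-29* 2 or 3, *mab-10* 3 or any *ddx-23* library also gave 3 lower. With the library series as a term of the model, 24 rose and 7 fell, against 5.48% and 0.824% of all tested genes. The authors estimated levels with RSEM, which divides reads that fit several genes, so values of near-identical collagens are less certain than those of unique genes.

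The most raised collagen was *col-107* (chromosome IV), at 2.19, 1.54 and 2.49 in wild-type and 6.52, 7.15 and 7.12 in mutant libraries (difference 4.86 ± 0.30, adjusted p = 1.48e-05 from limma). It lies within C34H4.5, a gene on the other strand. *col-176* rose from 1.94, 1.27 and 1.48 to 5.36, 5.25 and 4.78, by 3.57 ± 0.29. *col-3* read 5.23, 4.44 and 6.14 against 8.77, 8.64 and 8.45, a difference of 3.35 ± 0.35. In these 3 the mutant libraries lay closer together than the distance to any wild-type library. *col-169*, at 2.29, 1.41 and 2.91 against 4.76, 5.25 and 4.91, was 2.77 higher, and *col-166*, *col-167*, *col-117*, *col-94* and *col-141* rose by between 1.22 and 2.43. Among these 5, *col-167* lost its call without wild-type 1, *mab-10* 2 or *mab-10* 3, and *col-141* without any 1 of the core libraries.

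In *col-10*, *col-144* and *col-147* the 2 libraries that stood apart did not behave alike: wild-type 3 was the wild-type library nearest to the mutants and *mab-10* 1 the mutant library farthest from wild-type. *col-10* was at 4.55, 3.75 and 6.36 against 8.64, 7.81 and 7.66. Its difference of 3.15 ± 0.52 came to 4.49 within the earlier and 1.38 within the later libraries, and its call was lost without any 1 of the core libraries. *col-144*, 3650 bases from *col-10* on chromosome V, read 4.40, 3.67 and 6.12 against 8.36, 7.54 and 7.45 (4.33 and 1.38 within the series) and lost its call without wild-type 1 or *mab-10* 2. *col-147* read 4.23, 3.26 and 5.66 against 8.19, 7.11 and 6.33, its difference was 4.44 within the earlier and 1.06 within the later libraries, and its call was lost without wild-type 1 or 2, *mab-10* 2, *lin-29* 2 or 3 or any *ddx-23* library. Several raised collagens are neighbours: *col-117* and *col-3* lie 588 bases apart, and *col-167* and *col-169* 4767.

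The 5 collagens that fell had high levels in wild-type adults. *col-81* was at 8.67, 8.49 and 7.77 in wild-type and at 5.81, 5.84 and 4.61 in mutants. *col-129* read 8.74, 8.49 and 7.67 against 5.96, 5.81 and 4.63, and *col-139* read 8.76, 8.47 and 8.13 against 6.01, 6.08 and 4.80. The 3 genes lie on chromosomes II, IV and V. Their means in *lin-29* libraries were 5.3, 6.0 and 6.8, but in each wild-type and *mab-10* library they had similar levels. Their differences were -2.89 ± 0.32, -2.83 ± 0.34 and -2.82 ± 0.32 (adjusted p = 0.0014, 0.0020 and 0.0017 from limma), and each was called in every fit without 1 library. *col-178*, at 10.20, 10.03 and 8.77 against 7.74, 8.47 and 8.12, fell by 1.55, and by 2.38 within the earlier and 0.47 within the later libraries. *col-140*, the most abundant of the 5 at 10.93, 10.73 and 10.26 against 9.51, 9.76 and 9.43, fell by 1.08 and was named after its values were seen. These last 2 calls were lost in 9 of the 12 fits without 1 library, all but those without wild-type 3, *mab-10* 1 or *lin-29* 1.

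**Figure D3:**
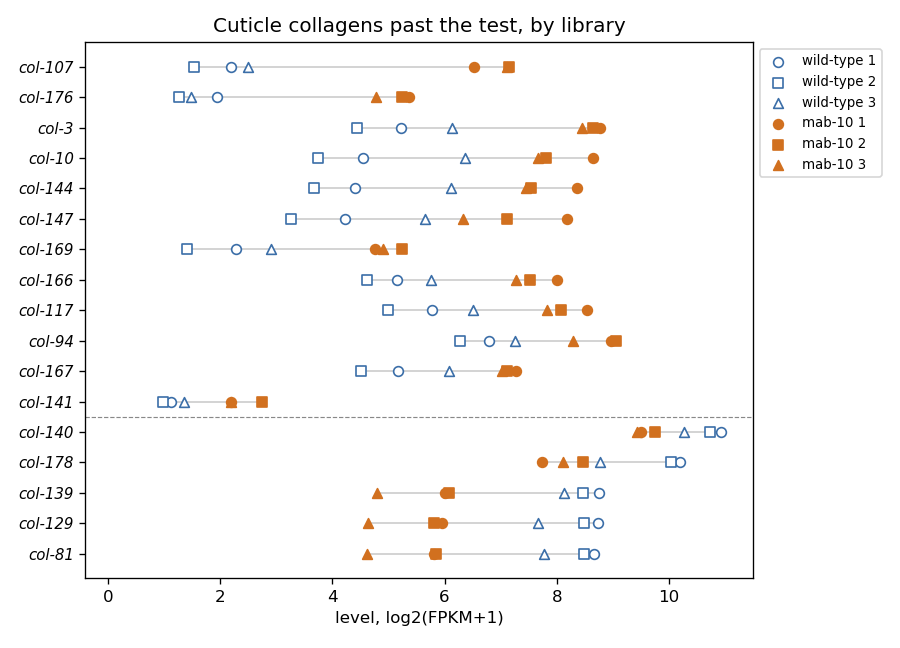
Level of the 17 cuticle collagens past the test in each library, as log2(FPKM+1), ordered by difference, with those that fell below the dashed line and wild-type libraries as open, *mab-10* libraries as filled markers. The wild-type and mutant markers of each gene do not overlap, and *col-81*, *col-129* and *col-139* hold similar positions.

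The adult collagen *col-19*, whose promoter drives the reporter in all strains, did not pass. Its level was 9.01, 8.76 and 7.01 in wild-type and 6.30, 7.93 and 7.41 in mutant libraries, so the groups overlapped at wild-type 3. The difference of -1.05 (adjusted p = 0.25 from limma) was -2.59 within the earlier and 0.66 within the later libraries. It passed without wild-type 3 (adjusted p = 0.0185 from limma). None of the 8 tested adult and L4 stage collagens passed in limma, although all lay below 0 with a median of -1.03. An unadjusted p under 0.05 was reached by 3, against 2994 of all 14199 tested genes. Without *mab-10* 1, 3 of the 8 passed as lower, and without wild-type 3, 2, against 0.972% and 2.61% of all tested genes. The annular furrow collagens, which shape the ridges of the cuticle, showed the opposite sign. *dpy-7* was at 1.52, 1.3 and 3.91 against 3.10, 3.86 and 4.71, and 5 of the 6 furrow collagens lay above 0. None of the 6 passed in limma (3 had an unadjusted p under 0.05), and 4 passed as higher without wild-type 3, against 13.1% of all tested genes.

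Compared with *lin-29* animals, *mab-10* animals had smaller collagen changes in several of the leading genes. The mean of *col-176* was 9.07 in *lin-29* and 5.13 in *mab-10* libraries, 3.94 lower (adjusted p = 1.48e-05 from limma), and *col-169* was 3.44, *col-144* 2.63, *col-10* 2.25, *col-3* 2.10 and *col-107* 1.24 lower in *mab-10*, each at an adjusted p under 0.05. For *col-147* the difference of -0.84 did not pass. In *col-81* the difference was 0.12 (adjusted p = 0.86) and in *col-129* -0.55 (adjusted p = 0.37), while *col-139* was 1.22 lower in *mab-10* (adjusted p = 0.039 from limma). In *ddx-23* libraries the collagens *col-81*, *col-129* and *col-139*, low in *mab-10* mutants, averaged 9.41, 9.49 and 9.70. Those values were 3.99 to 4.07 above the *mab-10* means (adjusted p between 5.21e-05 and 7.85e-05 from limma).

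Enzymes that process collagen also moved. Of 24 tested collagen-modifying genes 3 rose and 1 fell, against 1.04% and 0.232% of all tested genes, with a list median of 0.67. *tyr-4*, a tyrosinase gene, rose from 3.94, 3.72 and 4.30 to 5.79, 5.77 and 5.59, by 1.73 ± 0.14, and was called in every fit without 1 library. It was the 1 of 5 tyrosinase genes to pass, against 1.04% of all tested genes higher, and the other 4 lay above 0. *tsp-15*, a tetraspanin needed for the oxidase that cross-links cuticle, read 1.93, 1.66 and 1.83 against 2.79, 3.01 and 3.45. *skpo-3*, a heme peroxidase gene, read 2.93, 2.52 and 2.45 against 3.57, 3.64 and 3.74. The prolyl 4-hydroxylase gene *phy-3* was the 1 that fell, from 2.46, 2.13 and 2.15 to 1.38, 1.44 and 1.23, by 0.90, and 1491 bases of it overlap *tni-3* on the other strand. With *tyr-4* counted, 2 rose without wild-type 1, *lin-29* 3 or any *ddx-23* library, 1 rose without wild-type 2, *mab-10* 2 or *mab-10* 3, and 11 rose without wild-type 3 or *mab-10* 1, against 13.1% and 10.5% of all tested genes. *tsp-15* and *phy-3* failed without any 1 of the core libraries or any *ddx-23* library, *tsp-15* also without *lin-29* 3 and *phy-3* without *lin-29* 2, and *skpo-3* without wild-type 2, *mab-10* 2 or *mab-10* 3.

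The astacin metalloproteases, some of which digest cuticle at the molt, had 2 of 25 members higher and none lower, against 1.04% of all tested genes higher. *nas-11* stood at 4.14, 3.95 and 4.33 against 5.52, 5.67 and 5.93. *nas-9* stood at 2.24, 2.18 and 2.32 against 3.68, 3.72 and 3.79, and its libraries were close together in each group. The differences were 1.56 ± 0.16 and 1.48 ± 0.17, and both genes were called in every fit without 1 library. The list gave 5 without wild-type 3 and 7 without *mab-10* 1, against 13.1% and 10.5% of all tested genes.

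*hedgehog*-related genes encode secreted proteins with a Hedgehog-like or related domain, which act in molting of the worm. Among 34 tested members of the warthog, groundhog and related families 2 rose, *grd-13* and *grd-10*, against 1.04% of all tested genes. None fell. This family, the Patched-related genes and the collagens were topics of the published work on these samples, so their direction is not independent evidence.

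*grd-13* (chromosome IV) was at 3.73, 3.54 and 3.88 in wild-type and 5.31, 6.45 and 6.41 in mutants, a difference of 2.34 ± 0.29 (adjusted p = 0.0027 from limma), called in every fit without 1 library. *grd-10*, 1548 bases from it, read 2.54, 2.55 and 3.79 against 4.42, 5.44 and 5.60. Its difference was 2.20 ± 0.44, but it was lost without any 1 of the core libraries, *lin-29* 3 or any *ddx-23* library. The list median was 0.98 and 32 of the 34 lay above 0, against 71.8% of all tested genes. Without *mab-10* 1, 13 members rose, against 10.5% of all tested genes, and without wild-type 3, 4 rose, a share below the 13.1% of all tested genes.

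The Patched-related genes, homologs of the Hedgehog receptor, had 1 of 26 past the test as higher, against 1.04% of all tested genes. *ptr-23* rose from 2.30, 2.16 and 2.68 to 4.16, 3.97 and 4.13, by 1.71 ± 0.22, and was called in every fit without 1 library. All mutant libraries lay above all wild-type libraries. Without wild-type 3 the list had 8 higher and without *mab-10* 1 it had 6, against 13.1% and 10.5% of all tested genes. In *lin-29* and *ddx-23* libraries *ptr-23* averaged 4.59 and 3.92, with no test passed against *mab-10* (adjusted p = 0.19 and 0.67 from limma).

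Hemidesmosomes are the junctions that tie muscle through the epidermis to the cuticle. Of 12 tested genes for epidermal intermediate filaments and hemidesmosomes 5 rose, against 1.04% of all tested genes. None fell and all 12 lay above 0. The list median was 0.97. *mua-6*, an intermediate filament gene, was at 4.58, 4.03 and 4.14 against 6.56, 5.68 and 5.57 (difference 1.69 ± 0.25). *let-805*, which encodes the membrane protein myotactin, read 4.09, 3.75 and 3.80 against 4.80, 5.14 and 5.28 (difference 1.19 ± 0.16) and was called in every fit without 1 library. *pat-12*, a hemidesmosome component, read 4.60, 4.25 and 4.53 against 5.19, 5.80 and 5.78, and the filament gene *ifb-1* read 5.62, 5.29 and 5.89 against 6.70, 6.66 and 6.71. The fifth, *vab-10*, a spectraplakin gene, passed with a difference of 0.84 (adjusted p = 0.041 from limma) and was named after its values were seen. The count was 2, 1, 2 and 2 without wild-type 1, wild-type 2, *mab-10* 2 and *mab-10* 3, 3 without any *ddx-23* library, and 9 without wild-type 3 (13.1% of all tested genes). *mua-6* lost its call without wild-type 2, *ifb-1* without any 1 of the core libraries, and *pat-12* also without any *ddx-23* library. Means in *lin-29* and *ddx-23* libraries were 5.99 and 5.91 for *mua-6* and 6.78 and 6.77 for *ifb-1*, close to the *mab-10* means.

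Among the 21 tested seam cell and fusion genes 2 rose, against 1.04% of all tested genes. *eff-1* encodes the fusion protein that joins epidermal cells into syncytia. It was at 0.66, 0.86 and 1.51 in wild-type and 2.32, 2.37 and 2.20 in mutants, a difference of 1.29 ± 0.23 (adjusted p = 0.026 from limma) that was 1.56 within the earlier and 0.78 within the later libraries. The GATA factor gene *elt-3* of the hypodermis read 3.54, 3.42 and 3.63 against 4.14, 4.2 and 4.28, a difference of 0.68. *aff-1*, which encodes the other fusion protein of the worm and fuses the seam cells, read 0.30, 0.42 and 0.73 against 1.17, 1.53 and 1.61. The groups did not overlap, but it did not pass (adjusted p = 0.098 from limma) except without wild-type 3, *mab-10* 1 or *lin-29* 1. The list had no member past the test without any 1 of the core libraries or any *ddx-23* library, 1 without *lin-29* 2, 3 without *lin-29* 1 or *mab-10* 1, and 8 without wild-type 3 (13.1% of all tested genes). *rnt-1* (-0.41) and *lin-44* (-0.27), the 2 members below 0, did not pass.

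No heterochronic gene passed in limma, and 8 had an unadjusted p under 0.05, against 2994 of all 14199 tested genes. All 15 tested members lay above 0, with a median of 0.48, and 13 did so after either scaling. *hbl-1*, a zinc-finger gene that keeps early larval fates, had the largest difference. It read 2.06, 1.95 and 4.75 in wild-type and 4.62, 4.14 and 4.58 in mutants: wild-type 3 was as high as the mutants, and the difference of 1.53 (adjusted p = 0.26 from limma) was 2.62 within the earlier and -0.39 within the later libraries. It passed without wild-type 3. *lin-14*, a gene of the first larval stages, read 2.29, 2.34 and 2.65 against 3.10, 4.06 and 4.43. Its groups did not overlap, its difference was 1.44 (adjusted p = 0.10 from limma), and it passed without wild-type 3, *mab-10* 1 or *lin-29* 1. *lin-28* and *puf-9* had the smallest differences, 0.11 and 0.10. Without wild-type 3, 8 of the 15 passed as higher and without *mab-10* 1, 3, against 13.1% and 10.5% of all tested genes.

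**Figure D4:**
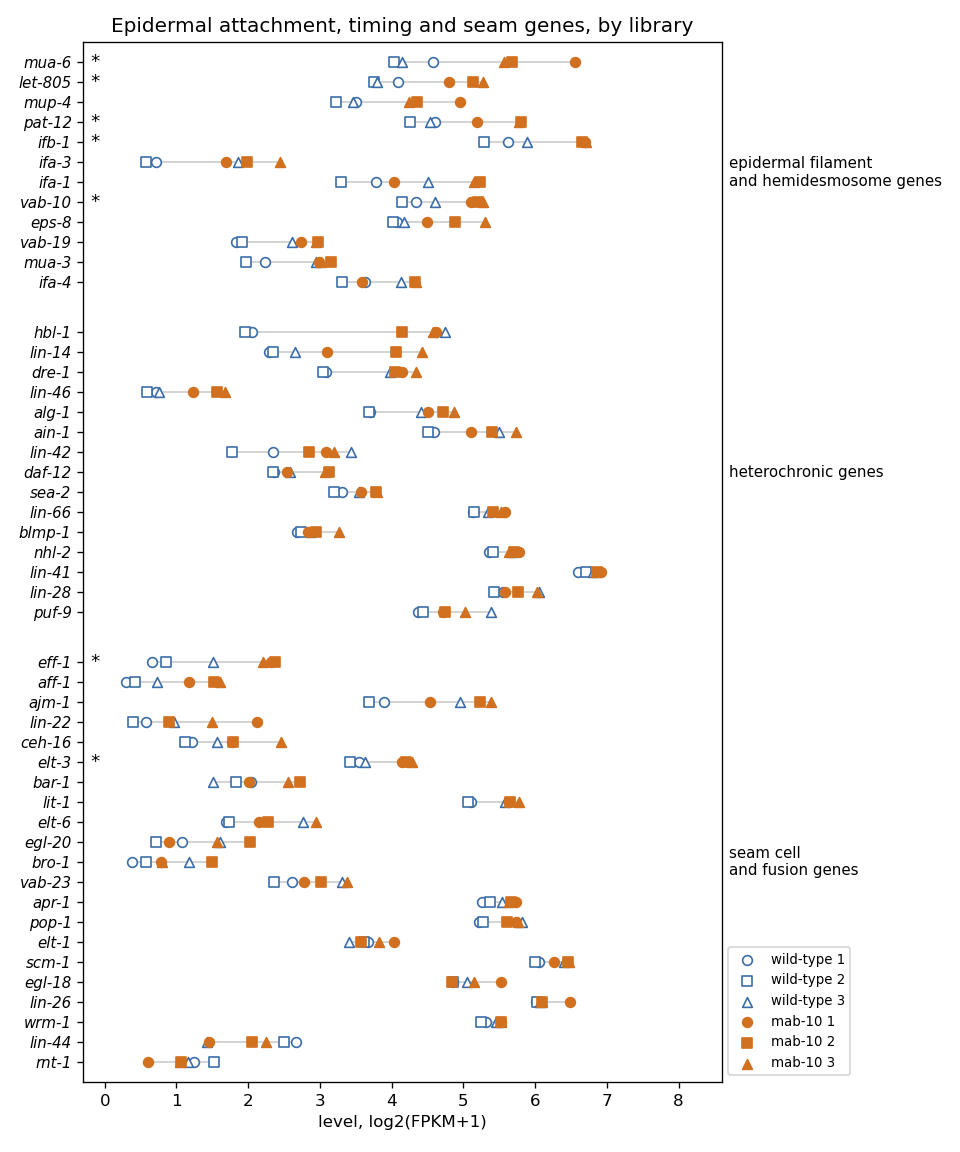
Level of the tested epidermal filament and hemidesmosome genes (top), heterochronic genes (middle) and seam cell and fusion genes (bottom) in each library, as log2(FPKM+1), with wild-type libraries open and *mab-10* libraries filled; an asterisk marks an adjusted p under 0.05. Asterisks stand at 5 of the 12 genes in the top block, none in the middle and 2 in the bottom block, and for *hbl-1* wild-type 3 lies at the mutant end.

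Cell cycle genes showed little difference. Of 57 core cell cycle genes none passed in limma in either direction, and the median was 0.09. An unadjusted p under 0.05 was reached by 6, all higher, against 2994 of all 14199 tested genes in both directions. Without wild-type 3, 4 passed as higher, a share below the 13.1% of all tested genes. The largest increases were in *cki-1*, the inhibitor of cyclin-dependent kinase that stops seam divisions, and *cdk-14*. *cki-1* was at 3.09, 3.16 and 4.82 against 4.22, 4.68 and 5.02, which is 1.10 within the earlier and 0.03 within the later libraries. *air-1* (-0.04) and *bir-1* (-0.03) were lowest. While 51 of the 57 lay above 0 as deposited, 12 did after median-ratio scaling. Dividing germ cells, which whole adults also hold, express these genes.

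Transthyretin-like genes encode small secreted proteins of nematodes. Of 51 tested, 5 rose and none fell, against 1.04% of all tested genes higher and 0.232% lower. *ttr-18* was at 6.84, 6.51 and 7.24 in wild-type and 8.91, 8.41 and 8.31 in mutants, a difference of 1.68 ± 0.19. *ttr-8* read 3.39, 3.04 and 4.26 against 6.28, 5.47 and 5.33, and its neighbour *ttr-32*, 1064 bases away, read 4.49, 4.04 and 5.2 against 6.89, 5.87 and 5.77. *ttr-30* and, named after its values were seen, *ttr-31* rose by 1.78 and 1.5. *ttr-8*, *ttr-18* and *ttr-31* were called in every fit without 1 library, *ttr-30* was lost without any 1 of the core libraries, and *ttr-32* in 9 of 12 fits. Within the earlier and the later libraries *ttr-8* differed by 3.07 and 1.14, *ttr-18* by 2.24 and 1.12, *ttr-30* by 2.43 and 0.76 and *ttr-32* by 2.63 and 0.62. There were 3 without any 1 of the core libraries, 15 without wild-type 3 and 11 without *mab-10* 1, against 13.1% and 10.5% of all tested genes.

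Secreted defence peptides of the epidermis had 2 of 18 members higher, against 1.04% of all tested genes. *nlp-26* rose from 3.26, 2.70 and 3.05 to 4.51, 4.99 and 5.04 (difference 1.84 ± 0.21, called in every fit without 1 library), and *cnc-3* from 1.60, 2.40 and 1.42 to 4.01, 3.51 and 3.81 (1.97 ± 0.34, lost without wild-type 1, *mab-10* 2 or *mab-10* 3). The list had 17 members above 0, none below and a median of 1.58, and 9 passed without wild-type 3 (13.1% of all tested genes) and 1 without wild-type 1, *mab-10* 2 or *mab-10* 3. *nlp-34*, named after its values were seen, at 3.10, 3.09 and 5.21 against 9.4, 6.26 and 6.22, had a *mab-10* 1 library well above the other mutants, and it did not pass (adjusted p = 0.079 from limma). In the related fip, fipr and grsp genes, 2 of 23 rose and 1 fell, against 1.04% and 0.232% of all tested genes. *fipr-13* fell from 4.48, 3.75 and 4.22 to 0.00, 0.39 and 0.55 (difference -3.84 ± 0.31, adjusted p = 1.21e-04 from limma), in every fit without 1 library. *fip-5* rose from 2.84, 2.44 and 3.07 to 6.06, 4.44 and 4.55 and *grsp-4* from 2.44, 2.15 and 2.65 to 3.08, 3.98 and 4.19. *fip-5* differed by 3.42 within the earlier and 1.43 within the later libraries and lost its call without wild-type 1, wild-type 2, *mab-10* 3, *ddx-23* 1 or *ddx-23* 3, and *grsp-4* in 9 of 12 fits. Without *mab-10* 1, 11 of the list rose, and without wild-type 3, 5, against 10.5% and 13.1% of all tested genes.

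Of the 128 genes called higher, 87 (68.0%) were in none of the gene lists, against 87.2% of all tested genes. Because the lists were chosen with earlier results of these data known, shares outside them are no independent evidence. F56D3.1 (chromosome II) read 1.63, 0.89 and 1.74 against 4.25, 3.91 and 4.62, a difference of 2.84 ± 0.40, and was called in every fit without 1 library. C53A5.2 (chromosome V) read 0.00, 1.08 and 1.19 against 3.40, 3.74 and 3.42, and lost its call without *mab-10* 2. It was listed at 0 in all 3 *ddx-23* libraries and averaged 3.37 in *lin-29* libraries.

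The other genes of this paragraph were chosen after their values were seen, as those with a known role or a call in every fit without 1 library. F55H12.4, at 6.67, 6.32 and 6.47 against 8.44, 8.78 and 8.77, was the most abundant of them. *rig-3*, which encodes a cell surface protein of the immunoglobulin superfamily, read 1.82, 1.60 and 2.19 against 3.09, 3.41 and 3.83. Both were called in every fit without 1 library, and the groups were well apart. Among transcription factor genes, *lin-48*, a zinc-finger gene of the Ovo family that acts in the hindgut and excretory duct, stood at 0.23, 0.23 and 0.26 against 1.23, 1.24 and 1.49. The Krüppel-like gene *klf-3* read 2.51, 2.25 and 1.79 against 3.28, 3.47 and 3.62. *sem-4*, a gene of the Spalt family, read 1.66, 1.53 and 2.17 against 2.61, 3.12 and 3.26. The calls of *lin-48* and *klf-3* were lost without wild-type 2, *mab-10* 2 or *mab-10* 3, that of *lin-48* also without wild-type 1, and that of *sem-4* in 9 of 12 fits. *mxl-3*, a gene of the basic helix-loop-helix class, went the other way, from 4.25, 4.42 and 4.22 to 3.27, 1.65 and 2.47. Its *mab-10* mean was 2.06 below that of *lin-29* and 2.81 below that of *ddx-23* libraries (adjusted p = 0.0041 and 0.0011 from limma), and its call against wild-type was lost in 8 of 12 fits.

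Of the 19 genes called lower, 12 were in none of the lists (63.2%, against 87.2% of all tested genes). *saeg-2*, whose product works with the cGMP-dependent kinase EGL-4, was at 5.87, 5.83 and 5.85 in wild-type and 3.20, 3.66 and 3.80 in mutants. The wild-type libraries were nearly equal, and the fall was 2.30 ± 0.15 (adjusted p = 2.2e-05 from limma). In *lin-29* libraries *saeg-2* averaged 3.67 and in *ddx-23* libraries 6.10. F32B5.1 read 3.75, 3.49 and 3.23 against 1.26, 1.40 and 1.08. F22F4.5 read 2.93, 2.68 and 2.52 against 1.28, 0.16 and 0.24, and was lost without any 1 of the core libraries.

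F18E3.12 fell in *mab-10* mutants from 3.37, 3.75 and 4.11 to 1.81, 0.00 and 0.52 but averaged 4.61 in *lin-29* and 5.38 in *ddx-23* libraries. It was 1.75 lower within the earlier and 3.85 lower within the later libraries. The *mab-10* mean was 3.84 below that of *lin-29* (adjusted p = 2.55e-04 from limma). The histone gene *his-45* was at 1.77, 3.0 and 2.70 in wild-type and listed at 0 in all 9 mutant libraries of the 3 strains. It met the filter through the wild-type libraries alone, so its direction and the lack of overlap were fixed by the filter. Histone genes have near-identical copies between which RSEM divides reads. *his-45* was the 1 of 72 tested histone genes to pass, against 0.232% of all tested genes lower.

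Markers of other tissues also differed between the groups, mostly without passing the test. None of the 77 sperm, 36 early embryo, 22 body wall muscle, 34 pharynx, 24 intestinal, 30 FMRFamide-like and 23 neuronal secretion genes passed in limma. In these lists 9, 5, 7, 25, 6, 20 and 16 had an unadjusted p under 0.05, against 2994 of all 14199 tested genes. Of 40 oocyte and eggshell genes *puf-6* passed, against 1.04% of all tested genes higher. All 6 vitellogenin genes, which encode the yolk proteins made by the adult intestine, lay below 0, and their summed FPKM was 20520 to 27520 in wild-type and 13870 to 20390 in mutants. Their lowest level in any library of the 2 groups was 9.12, and 5 of them had an unadjusted p under 0.05. Without wild-type 3, 5 passed as lower, and without *mab-10* 1, 3, against 2.61% and 0.972% of all tested genes. Pharynx genes summed to 256.5 to 431.8 in wild-type and 397.7 to 1096 in mutants, with a median difference of 1.25, and FMRFamide-like genes to 279.9 to 613.2 and 441.8 to 925.3. In both lists the order of libraries was wild-type 1 and 2 low, then wild-type 3 and *mab-10* 1, and *mab-10* 2 and 3 high. Sperm genes summed to 1530 to 2239 and 1118 to 1786, with a median of -0.42. Whether tissue or stage composition had a part in the changes above was not tested.

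**Figure D5:**
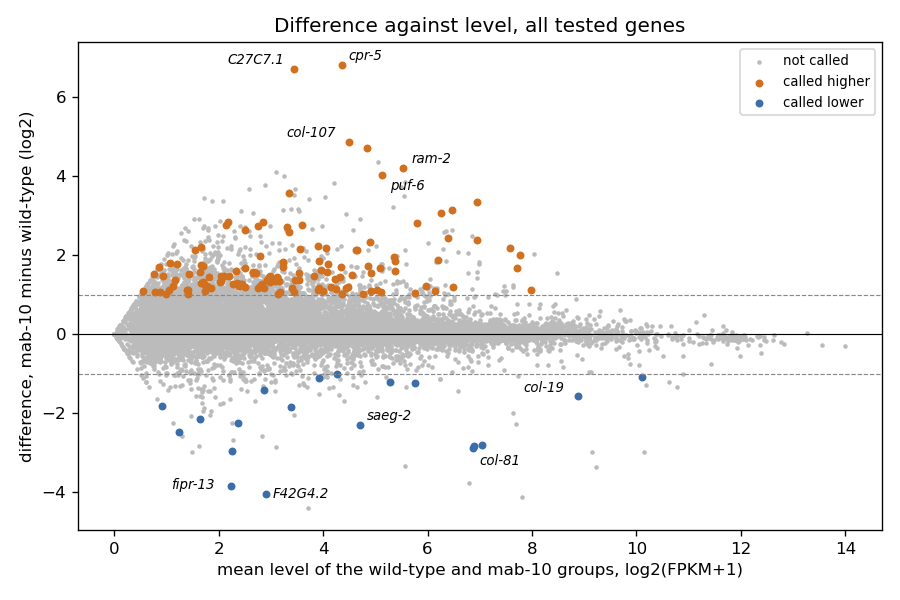
Difference between *mab-10* and wild-type libraries (vertical axis, log2) against the mean level of the 2 groups (horizontal axis, log2(FPKM+1)) for the 14199 tested genes, with called genes in colour and dashed lines at a difference of 1 and -1. The 128 genes called higher and 19 called lower are shown among many genes with differences over 1 in grey that did not pass.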

How the data were processed

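Reads were mapped with STAR 2.5.3a against WS258 sequences and quantified with RSEM 1.3.0 by the authors, and the deposited values are log2(FPKM+1) per gene, with no filter. The unit keeps no read counts, so the count-based DESeq2 test of the study could not be run. For filters, sums and the other pseudocount the log was undone. Genes reaching an FPKM of 1 in 3 of the 12 libraries were fitted with limma 3.58.1 (R 4.3.3, trend and robust) with 4 genotype means, leaving 8 residual degrees of freedom, and p-values were adjusted over all 14199 genes. P-values measure the spread between replicates described as biological, as shared by the 4 genotypes. That spread includes the shift between earlier and later libraries in wild-type, *mab-10* and *lin-29*, while all *ddx-23* libraries were earlier ones. Named genes were those with the 15 largest increases and 10 largest decreases among the called genes, up to 4 members a direction in each of 45 gene lists, the 3 mutated genes and *col-19*, 2 genes a direction in the timing, seam and cell cycle lists, and the 5 steadiest calls. List members were counted by adjusted p alone. Genes outside this rule were named after their values were seen. The genes, lists and the division into library series were chosen with earlier results of these data known. Positions are from a WBcel235 annotation, and 31 of 71 named genes overlap another gene there; strand-specific counting is not given in the sources used here. Alternatives were another scaling, filter, pseudocount, library weights, fits without each library, within each series, and with series or replicate number in the model. Tables and plots were made in Python 3.11.15 (pandas 2.3.3, matplotlib 3.10.9). The test was tried on simulated data first. No sequences were used.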

Additional observations from a re-analysis of the deposited data

How the results depend on the processing

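The 128 genes higher and 19 lower came to 40 to 1049 and 9 to 185 in the 12 fits that each left out 1 library. Without both wild-type 3 and *mab-10* 1 there were 2348 and 271. That fit set earlier wild-type against later *mab-10* libraries, so genotype and library series cannot be told apart in it. With library weights, which gave wild-type 3 and *mab-10* 1 0.173 and 0.207, there were 2277 and 281. The 6 libraries alone, with 4 residual degrees of freedom, gave 16 and 4. A term for the library series gave 312 and 38, the earlier libraries alone 572 and 203, and the later alone 343 and 58, with 1 library for a group in each, which was assumed to vary like the others. Quantile normalization gave 63 and 36, and a pseudocount of 0.1 gave 198 higher. Median-ratio scaling, no filter on low values, an FPKM of at least 5 and limma without trend or robust options kept both counts within 1.5 times. Replicate numbers do not pair the libraries: the deviations of same-numbered libraries correlated at 0.227, -0.228 and 0.31, and with the replicate block there were 163 and 19, of which 114 and 17 had been called before. No direction of a named gene that passed reversed in any of these fits. Where the groups do not overlap, fits without a library, within a series or with weights cannot reverse a direction. In the fit with the series term, 896 of the 14199 tested genes were higher and 90 lower in later than in earlier libraries. These had an adjusted p under 0.05 from limma and a difference over 1 in size, and no *ddx-23* library was among the later ones. The cause of the changed counts was not tested. Depth is unknown, so no counting error can be given, and genes listed at 0 may be failed estimates.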

Other observations

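The genes named here, other than those with a call, were chosen after their values were seen, and the cause of their pattern was not tested. The cuticlin *cut-2*, a matrix protein of the cuticle, was at 1.58, 1.2 and 4.11 in wild-type and 3.51, 7.0 and 7.86 in *mab-10* libraries. All 29 tested cuticlins lay above 0, and none passed in limma with the 12 libraries. An unadjusted p under 0.05 was reached by 15, against 2994 of all 14199 tested genes. Without wild-type 3, 9 cuticlins passed, and without *mab-10* 1, 7, where 13.1% and 10.5% of all tested genes were higher. The pharyngeal cuticle gene *abu-14* followed the same order, at 1.43, 0.45 and 3.14 against 2.65, 6.17 and 6.81, as did the neuropeptide gene *flp-21*, at 2.33, 2.46 and 4.55 against 3.76, 5.29 and 5.15. Pharynx genes had 11 of 34 higher without wild-type 3 and 20 without *mab-10* 1, against the same 13.1% and 10.5%. The collagens *col-74* and *col-165* had differences of 4.01 and 4.11, which 6 and 5 of the genes called higher exceeded, and did not pass: *col-165* was at 0.00, 0.00 and 3.15 against 2.36, 6.15 and 6.96.

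The opposite order was seen in the yolk gene *vit-4* and the gut gene *asp-13*. It did not hold for gut genes in general. Of 24 tested intestinal genes 15 lay above 0, and the summed FPKM of the 11 tested aspartyl proteases was highest in wild-type 3 (4742). *vit-4* was at 11.85, 11.83 and 9.97 in wild-type and 11.11, 9.47 and 9.47 in *mab-10* libraries, and the intestinal aspartyl protease gene *asp-13* at 6.85, 6.66 and 5.26 against 6.03, 4.60 and 4.14. In the fit with a library series term, all 6 vitellogenins passed as lower, against 0.824% of all tested genes. The defence peptide gene *fip-1* was listed at 0 in every wild-type library and in *mab-10* 2 and 3, and stood at 5.70 in *mab-10* 1. The detoxification, F-box and nuclear hormone receptor genes, the largest lists, had 0 of 135, 1 of 195 (*fbxa-11*, 1.11 higher) and 1 of 167 (*nhr-7*, 1.03 higher) past the test in limma. These shares lay below the 1.04% of all tested genes that were higher. An unadjusted p under 0.05 in limma was reached by 20 detoxification genes, against 2994 of all 14199 tested genes. Both *fbxa-11* and *nhr-7* lost the call without any 1 of the core libraries. Of 91 C-type lectin genes 2 rose (*clec-199*, *clec-146*) and 2 fell (*clec-186*, *clec-49*), against 1.04% and 0.232% of all tested genes. None of the 4 passed without any 1 of the core libraries.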
